A study of Mus musculus with 6 samples.

Results

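The adult globin genes and the genes that make their heme were followed in the striatum of 3 Hdh4/Q80 mice and 3 wild-type littermates. The set holds 9 of the 8949 genes named on the array: the alpha-globins Hba-a1 and Hba-a2, the beta-globins Hbb-b1 and Hbb-b2, the heme synthesis enzymes Alas1, Alas2, Alad and Fech, and Slc4a1, the anion exchanger of the red cell membrane. Every probe set whose annotated symbols include a member was taken, 10 of the 12422 on the array, and 5 of these 10 report adult globins. Of those 5, 3 are shared by several globin genes, so Hba-a2 and Hbb-b1 were measured only by shared probe sets, while Hba-a1 and Hbb-b2 each also had 1 of their own by annotation. The members were chosen by the measured difference between these same 6 arrays, in which Hba-a1 had stood among the lowest, so their differences between the groups are given as a description; the fit over all probe sets gives the standard errors and the count of calls, and supports nothing about the members. All 6 animals were female, C57BL/6 and 12 months old. The controls are labelled wild type. In Hdh4/Q80 mice the CAG repeat of the endogenous huntingtin gene is lengthened, as a model of Huntington's disease. The sources used here do not give zygosity, nor whether blood was flushed from the brain before dissection. Total RNA of each striatum was read on 1 array per mouse.

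Haemoglobin of the adult is built of a pair of alpha and a pair of beta chains, each holding a heme group. Heme is made from glycine and succinyl-CoA in a pathway that starts and ends in the mitochondrion: an ALA synthase (Alas1 in all tissues, Alas2 in erythroid cells) makes 5-aminolevulinate, Alad condenses it into porphobilinogen, and Fech inserts the iron at the end. Red cells that have just left the bone marrow still hold large amounts of globin messenger RNA, so blood left in a tissue brings globin transcripts with it, and alpha- and beta-globin transcripts have also been described in some neurons and glial cells. C57BL/6 mice carry a beta-globin haplotype whose adult genes are named Hbb-bs and Hbb-bt, while Hbb-b1 and Hbb-b2 are the names of the adult genes of another haplotype. The shared beta-globin probe sets are annotated to all 4 of these names. Probe sequences were not used here, so the probe set annotated to Hbb-b2 alone, and its likeness with Hba-a1 given below, may report Hbb-bs or Hbb-bt in these mice.

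The promoters of the globins are shown because the globin probe sets all had lower means in the mutants, as described next; that of Alas2 is set beside them. The sequences are RefSeq's, from GRCm38.p6, and 5 of the 9 members matched the promoter table by symbol; Hbb-bs and Hbb-bt were added to them. Each run is the 250 bases before the annotated start, 5′ to 3′ along the gene, and capitals mark 4 short motifs searched on both strands, which may overlap each other. They are CACCC, a binding motif of Krüppel-like factors; GATAA, the core read by GATA factors; CCAAT, the box found before many genes; and TATAA, the core of the TATA box.
Hba-a1, chr11:32283422-32283671, plus strand: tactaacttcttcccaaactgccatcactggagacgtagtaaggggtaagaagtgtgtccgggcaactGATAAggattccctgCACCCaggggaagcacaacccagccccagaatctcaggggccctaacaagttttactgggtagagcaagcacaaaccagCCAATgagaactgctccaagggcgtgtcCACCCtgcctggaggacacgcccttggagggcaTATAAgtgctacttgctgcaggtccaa
Hbb-bs, chr7:103827929-103828178, minus strand: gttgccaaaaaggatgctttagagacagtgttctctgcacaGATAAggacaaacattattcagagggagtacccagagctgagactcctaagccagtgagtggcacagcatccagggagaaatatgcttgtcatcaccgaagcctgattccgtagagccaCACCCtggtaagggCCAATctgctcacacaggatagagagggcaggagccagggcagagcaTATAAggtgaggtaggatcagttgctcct
Hbb-bt, chr7:103813924-103814173, minus strand: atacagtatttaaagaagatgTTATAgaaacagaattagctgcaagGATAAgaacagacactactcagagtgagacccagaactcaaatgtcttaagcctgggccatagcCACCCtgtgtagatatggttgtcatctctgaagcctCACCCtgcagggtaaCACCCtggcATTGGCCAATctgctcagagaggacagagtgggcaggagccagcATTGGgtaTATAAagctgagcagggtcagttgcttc
Alas2, chrX:150547167-150547416, plus strand: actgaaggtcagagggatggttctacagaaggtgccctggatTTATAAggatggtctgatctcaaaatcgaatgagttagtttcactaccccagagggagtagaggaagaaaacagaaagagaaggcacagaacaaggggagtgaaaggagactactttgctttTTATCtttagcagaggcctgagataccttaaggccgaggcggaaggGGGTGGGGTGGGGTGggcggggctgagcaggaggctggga
The Hba-a2 window shares an identical run of 247 bases with that of Hba-a1, so the alpha-globin genes cannot be separated by these letters. All 4 motifs were present in the windows of Hba-a1, Hba-a2, Hbb-bs and Hbb-bt, against 0.968% of the 32851 windows of this length in the table. The motifs were a list set by hand and Hba-a2 nearly repeats Hba-a1, so this share is a description and no test. Alas2, the erythroid ALA synthase, had 3 of the 4 and no match to CCAAT. Both windows of Alas1 held CACCC only. Of the windows of Alad, 1 held CACCC together with a CCAAT match and the other only CCAAT. By themselves the motifs are common: CACCC is in 52% of all windows, CCAAT in 33.8%, TATAA in 22.8% and GATAA in 22.6%. TATAA lay 27 bases before the start in Hba-a1, 29 in Hbb-bs and 28 in Hbb-bt, counted to its first base. Hbb-bt had another match 229 bases before the start, and the Alas2 matches lay 208 and 207 bases before it. These matches describe letters and not bound sites.

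Each array gave log2 expression values made by robust multi-array average (RMA), with medians of 7.10 to 7.13. Hdh4/Q80 mouse 8 stood apart from the rest, with a mean correlation of 0.992 with the other arrays across probe sets, against 0.995 to 0.997 for the other 5 mice. By limma with Benjamini-Hochberg adjusted p-values, 0% of the 12422 probe sets passed an adjusted p of 0.05 in either direction, and 634 (5.1%) had an unadjusted p under 0.05. Of the striatal neuron genes looked for, 5 of 12 had a probe set of their own, and Penk, the enkephalin precursor, read between 12.92 and 13.14 on all 6 arrays. RMA gives no detection call, so absence of a transcript could not be called.

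All 5 adult globin probe sets had lower means in Hdh4/Q80 than in wild-type striatum, by 0.11 to 0.44 on the log2 scale; over the whole array 51.1% of probe sets had a difference below 0. In 4 of the 5 every mutant lay below every wild type, where 5.05% of all probe sets on the array show this. The median of the 5 differences was -0.29, and that of all 12422 probe sets was -0.0027. Without Hdh4/Q80 mouse 8 the mean of the 5 differences went from -0.29 to -0.26. None of the 5 passed the test over all probe sets. In bulk tissue, fewer cells that carry a transcript and less of it per cell cannot be told apart.

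Hba-a1, which encodes alpha-globin, read 11.77, 11.63 and 11.52 in wild-type mice 4, 5 and 6 and 11.32, 11.15 and 11.17 in Hdh4/Q80 mice 7, 8 and 9 on the probe set that names this gene alone. The groups did not overlap, and the nearest mice were wild type 6 and Hdh4/Q80 7. The means were 11.64 ± 0.124 and 11.21 ± 0.0894 (SD, n = 3 each), a 1.34-fold lower level with a difference of -0.43 ± 0.0847 (SE). Counted from the lowest difference on the array, it held rank 9 of 12422. The shared alpha-globin probe set, annotated to Hba-a1 and Hba-a2, read 9.74, 9.78 and 9.76 in wild type and 9.60, 9.55 and 9.58 in the mutants. Its groups were tight and apart, with means of 9.76 ± 0.0211 and 9.58 ± 0.0267 (SD, n = 3 each) and a smaller difference of -0.18 ± 0.0644 (SE). By its suffix (_f_at) this probe set can bind related transcripts.

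The brighter shared beta-globin probe set, annotated to Hbb-bs, Hbb-bt, Hbb-b1 and Hbb-b2, read 11.38, 11.37 and 11.38 in wild type and 11.14, 10.77 and 10.89 in Hdh4/Q80 mice 7, 8 and 9. The wild types were almost identical and the mutants spread widely, all below them. The means were 11.38 ± 0.00647 and 10.93 ± 0.185 (SD, n = 3 each), 1.36-fold lower with a difference of -0.44 ± 0.0929 (SE), rank 7 from the lowest on the array. The probe set annotated to Hbb-b2 alone read 8.23, 8.13 and 8.06 in wild type and 7.91, 7.82 and 7.83 in the mutants. Again the groups did not overlap, and the difference was -0.29 ± 0.0735 (SE; means 8.14 ± 0.0881 and 7.85 ± 0.0512, SD, n = 3 each), 1.22-fold lower. The dim shared beta-globin probe set, with the same annotation, read 3.54, 3.44 and 3.38 in wild type and 3.24, 3.35 and 3.43 in the mutants. Here the groups overlapped, and the difference of -0.11 ± 0.0782 (SE) lies on a probe set that was below the lower quartile of all 6 arrays. RMA shrinks differences of such dim probe sets, so this value is a weak measure.

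**Figure D1:**
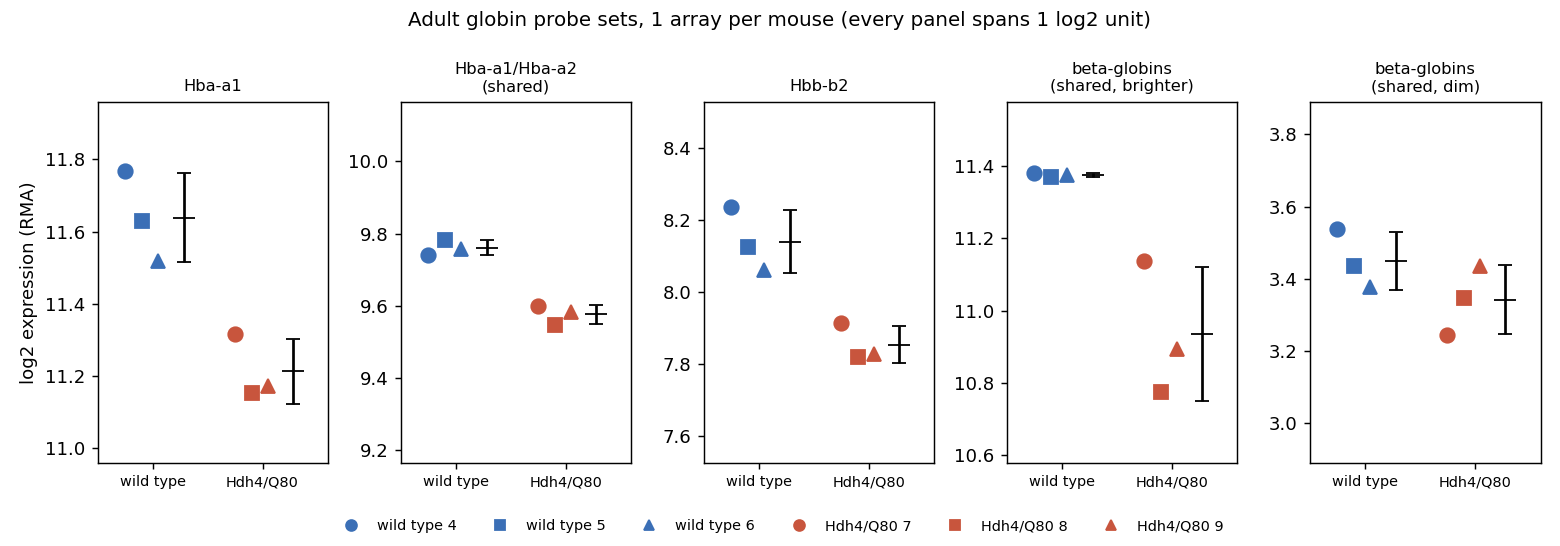
log2 expression of the 5 adult globin probe sets (y axis) by group (x axis), 1 point per mouse with its mouse number given by colour and shape, and the group mean ± SD (n = 3) in black. In 4 panels all 3 Hdh4/Q80 mice lie below all 3 wild types; in the dim shared beta-globin probe set they overlap.

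Hba-a1 and Hbb-b2 also followed each other from mouse to mouse. Both ranked the 6 mice alike, from wild type 4, 5 and 6 down to Hdh4/Q80 mice 7, 9 and 8. Over the 6 arrays the Pearson r between these probe sets was 0.999, the highest of the 12421 probe sets set against Hba-a1. Because the groups differ in Hba-a1, such an r holds the group difference too; with each group's mean taken off, the r was 0.993, rank 2 of 12421. The brighter shared beta-globin probe set had an r of 0.93 (rank 47) and 0.58 after removal of the group means (rank 1214), and the shared alpha-globin probe set 0.91 (rank 63) and 0.13 (rank 5474). With the group means taken off, the r was thus high for Hbb-b2 and lower for these shared probe sets, and 6 arrays cannot show a lack of agreement. In the brighter shared beta-globin probe set the wild types barely varied (SD 0.00647), and the mutants ranked 7, 9 and 8 as in Hba-a1. All these r values are likenesses over 6 arrays that share each mouse's RNA and hybridisation, given without a test.

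The heme synthesis enzymes had small differences of both signs, and 0 of the 4 passed the test or lay entirely below the wild types. Alas1, the ALA synthase of all tissues, read 9.21, 9.13 and 9.26 in wild type and 9.29, 8.96 and 9.23 in Hdh4/Q80 mice 7, 8 and 9. Mouse 8 was the low one, and the difference of -0.043 ± 0.0938 (SE) became 0.058 without that mouse. Alas2, the erythroid ALA synthase, read 8.12, 8.06 and 8.00 against 8.10, 8.03 and 8.01. The groups overlapped almost completely, with a difference of -0.014 ± 0.0691 (SE) that took the opposite sign without wild type 4 (0.016) or Hdh4/Q80 mouse 9 (0.0023), with array weights (0.046) and after quantile (0.0031) or cyclic loess normalization (0.0042). Within groups Alas2 followed Hba-a1 closely (r = 0.984 of the deviations from the group means, rank 6 of 12421), against r = 0.517 over the 6 values themselves. Outside the members, probe sets of Pnrc1, Nomo1, Ntrk3 and Gpank1 had nearly the same r of deviations (0.981 to 0.983, ranks 8 to 11).

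Alad, which joins 5-aminolevulinate into porphobilinogen, read 7.95, 7.85 and 7.91 in wild type and 7.99, 7.99 and 8.00 in the mutants. All 3 mutants lay above the wild types, as in 6.67% of probe sets on the array, with a difference of 0.089 ± 0.0659 (SE). Fech, ferrochelatase, read 3.90, 3.94 and 3.84 against 3.75, 3.87 and 3.75, a difference of -0.10 ± 0.0714 (SE) with overlapping groups. Its probe set was below the lower quartile of all 6 arrays and is as weak a measure as the dim beta-globin probe set. The 4 enzymes together had a mean difference of -0.017, which became 0.011 when the dimmest 40% of probe sets were left out, 0.00067 without Hdh4/Q80 mouse 8 and 0.017 with array weights.

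**Figure D2:**
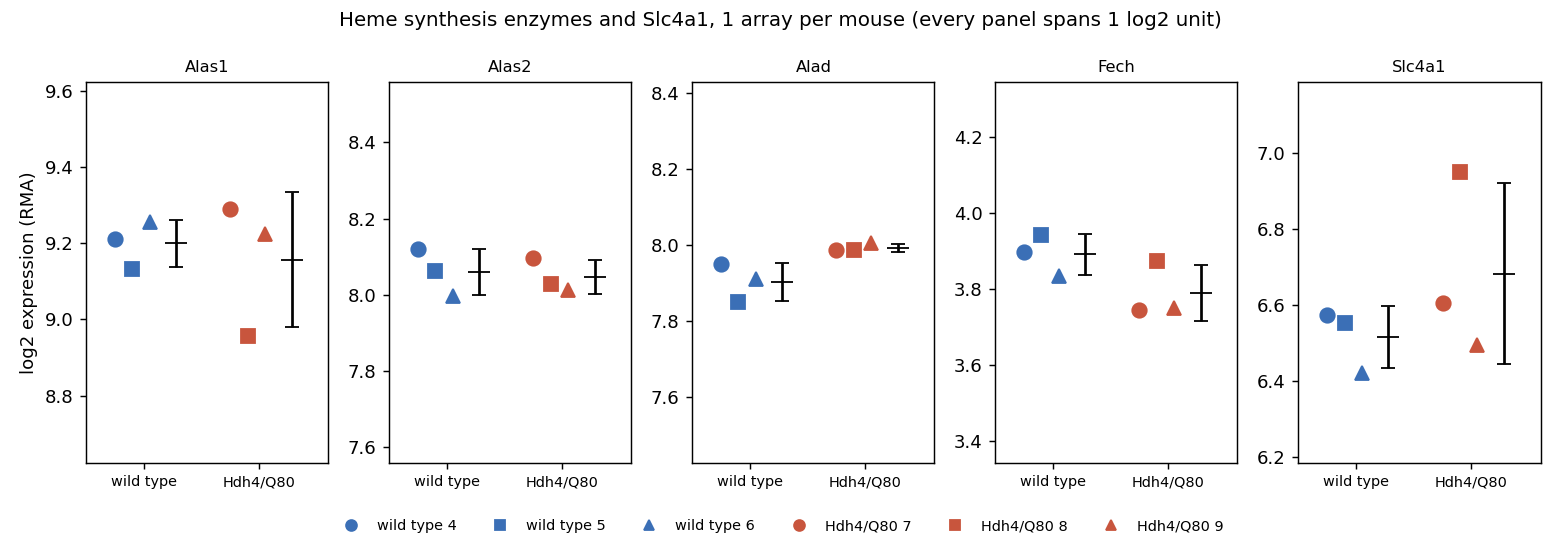
log2 expression of the heme synthesis enzymes Alas1, Alas2, Alad and Fech and of Slc4a1 (y axis) by group (x axis), 1 point per mouse, and the group mean ± SD (n = 3) in black, with every panel spanning 1 log2 unit as in the plot of the globins. Hdh4/Q80 mouse 8 is low for Alas1 (8.96) and high for Slc4a1 (6.95), and Alad alone has all mutants above the wild types.

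Within each array, the mean of the 5 globin probe sets minus the mean of the 4 enzyme probe sets was 1.64, 1.62 and 1.57 in wild-type mice 4, 5 and 6 and 1.36, 1.32 and 1.33 in Hdh4/Q80 mice 7, 8 and 9. The groups did not overlap, with means of 1.61 ± 0.0363 and 1.34 ± 0.0224 (SD, n = 3 each) and a difference of -0.27. This quantity does not depend on an array's overall level. Since the members were chosen on this contrast, the gap is a description. It ran from -0.29 to -0.26 with 1 mouse left out.

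Slc4a1, the anion exchanger band 3 of red cells, had the opposite sign to the globins. It read 6.57, 6.55 and 6.42 in wild type and 6.60, 6.95 and 6.49 in the mutants, a difference of 0.17 ± 0.112 (SE) that became 0.034 without Hdh4/Q80 mouse 8. The groups overlapped. Of 27 red cell and erythroid genes looked for, Slc4a1 and Alas2 among them, 16 had a probe set of their own. In the test over all probe sets 0 of the 16 passed in either direction (limma; 0 had an unadjusted p under 0.05). Their median difference was 0.052, with 6 below 0 and 10 above, and the differences ran from -0.12 to 0.17. The mean level of the list ran from 7.10 to 7.15 in wild type and from 7.13 to 7.21 in the mutants, and its sum on the linear scale from 4389 to 4616 and from 4262 to 4566. Car1, the carbonic anhydrase of red cells, differed by 0.17 ± 0.108 (SE), which became 0.044 without mouse 8. Rhd, the Rhesus blood group protein, differed by 0.12 ± 0.0694 and Hemgn, a nuclear protein of erythroid precursors, by 0.14 ± 0.0824 on a dim probe set. In 0 of the 16 were the mutants entirely below the wild types (5.05% of the array), and in 2 they were entirely above (6.67% of the array). The 6 below 0 were Dmtn (-0.12), Bpgm (-0.062), Nfe2 (-0.025), Epor (-0.015), Alas2 (-0.014) and Rhag (-0.0054). Of the 16 probe sets, 2 were below the lower quartile on all 6 arrays and 6 were among the dimmest 40% of the array, where RMA shrinks differences. Dmtn was the brightest (means 10.97 in wild type and 10.84 in the mutants) and weighs most in the linear sum. Whether these probe sets report red cells, other cells of the striatum or background was not tested.

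**Figure D3:**
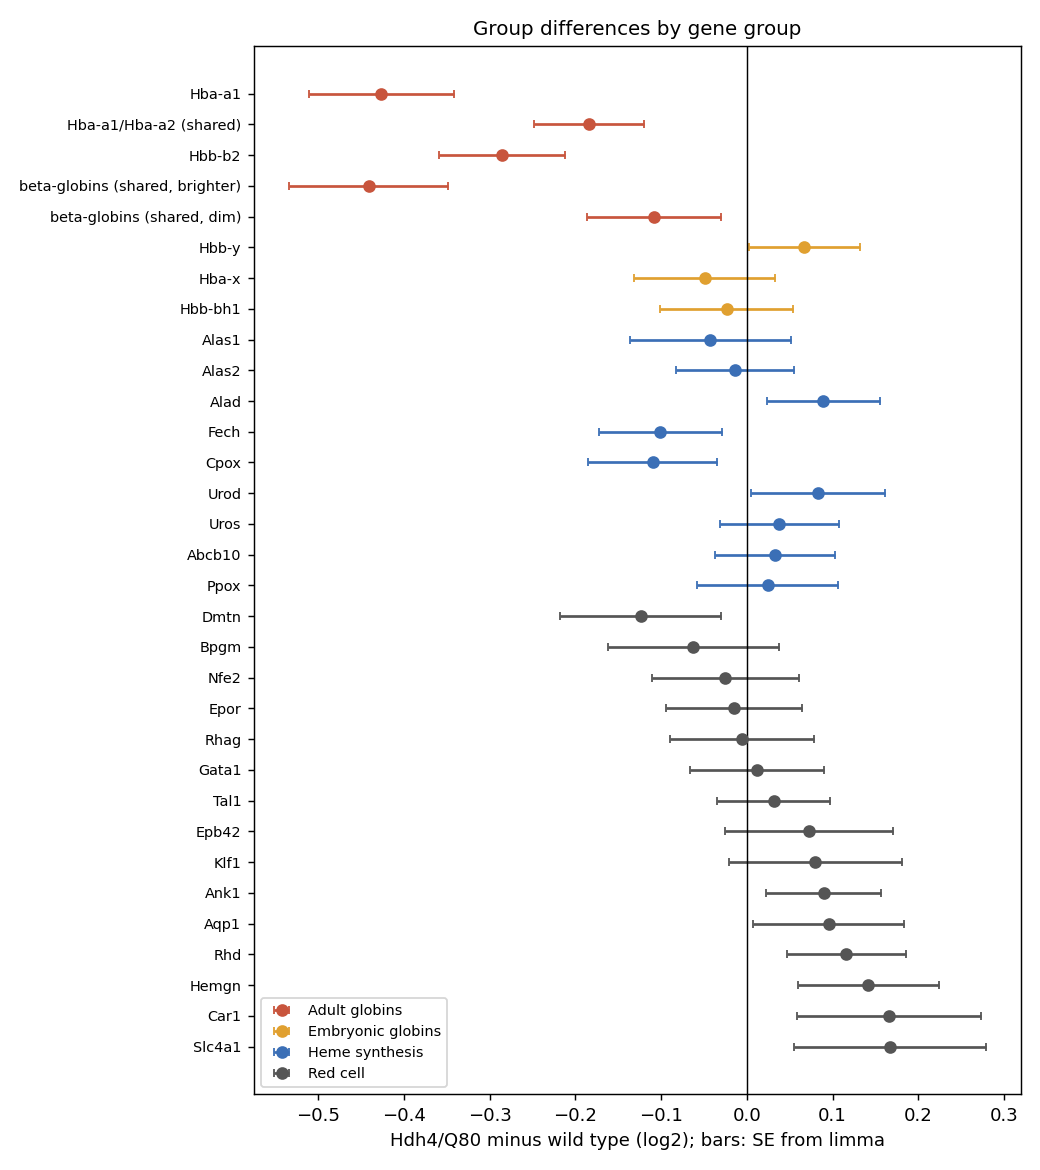
Hdh4/Q80 minus wild type (log2, x axis) with limma's standard error for the adult globin probe sets, the embryonic globins, the heme synthesis genes and the red cell genes (y axis). The adult globins lie left of 0, down to -0.44, while the other groups lie between -0.12 and 0.17.

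The embryonic globins share the chromosomal clusters of the adult genes but are silent in adult red cells. Hba-x, the embryonic alpha-like globin, differed by -0.049 ± 0.0823 (SE), Hbb-bh1 by -0.023 ± 0.0774 and Hbb-y by 0.067 ± 0.0648, and 0 of these passed the test. With mouse 9 left out, Hba-x (0.0066) and Hbb-bh1 (0.042) changed sign. Both probe sets of Hbb-y were higher in the mutants on average (0.067 and 0.062). On the brighter the mutants lay entirely above the wild types (6.67% of the array), and on the other the groups overlapped. By its suffix (_f_at) the brighter can bind related transcripts. Mb, the myoglobin of muscle, differed by 0.030 ± 0.106. Whether these probe sets detected transcript or background was not tested.

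The rest of the heme pathway and its neighbours gave 0 calls. Of 10 other genes of heme synthesis and mitochondrial heme transport, 5 were measured, with a median difference of 0.033. Cpox, coproporphyrinogen oxidase, differed by -0.11 ± 0.0753 (SE) and had the opposite sign on its other, dimmer probe set (0.072). Urod, uroporphyrinogen decarboxylase, differed by 0.083 ± 0.0779 (0.018 without Hdh4/Q80 mouse 8) and by -0.055 on its other probe set, Uros by 0.038 ± 0.0696 (0.0037 without wild type 4), Abcb10 by 0.033 ± 0.0697 and Ppox by 0.024 ± 0.0821. Of 10 genes of heme breakdown and carriage 8 were measured, with 6 above 0, 0 passing the test and a median of 0.059. Their mean level ran from 7.03 to 7.05 in wild type and from 7.07 to 7.10 in the mutants, so these groups did not overlap, and no test was made of the list. In 2 of the 8, Hmox1 and Flvcr2, the mutants lay entirely above the wild types (6.67% of the array). In 1, Hebp1, they lay entirely below (5.05% of the array). Hmox1, the inducible heme oxygenase that opens the heme ring, read 8.33, 8.27 and 8.18 in wild type and 8.36, 8.45 and 8.43 in the mutants. All mutants lay above the wild types, and the difference of 0.15 ± 0.0711 (SE) did not pass limma's test (adjusted p = 0.857). Its constitutive partner Hmox2 differed by 0.065 ± 0.072, which became 0.025 without Hdh4/Q80 mouse 8 and 0.0057 with array weights. The heme carrier Flvcr2 differed by 0.10 ± 0.0698 on a dim probe set and the heme-binding protein Hebp1 by -0.11 ± 0.0738, which became -0.047 without mouse 8.

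Of 11 iron handling genes 7 were measured, with a median difference of 0.035. Fth1, the ferritin heavy chain that stores iron, read 12.43, 12.39 and 12.50 in wild type and 12.32, 12.33 and 12.29 in the mutants on its brighter probe set. The groups did not overlap, but the difference of -0.12 ± 0.0667 (SE) did not pass limma's test (adjusted p = 0.857), and the other probe set gave 0.0075. On the brighter probe set it became -0.061 after quantile and -0.047 after cyclic loess normalization. The transferrin receptor Tfrc differed by 0.053 ± 0.0748, and by -0.0044 without Hdh4/Q80 mouse 8. The iron transporter Slc11a2 differed by 0.14 ± 0.106, which became 0.017 without that mouse, and the iron regulatory protein Aco1 by 0.066 ± 0.0786, which became 0.012 without wild type 6.

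Markers of other cells that blood and vessels bring into a dissection were set beside the globins. Among 13 white blood cell genes, 11 were measured, 5 below 0 and 6 above, with a median of 0.021 and 0 passing the test. Their mean level ran from 6.44 to 6.51 in wild type and from 6.44 to 6.52 in the mutants, and 5 of the 11 were below the lower quartile of all arrays. In 2 of the 11 the mutants lay entirely below the wild types (5.05% of the array). These were Lyz2 (-0.21 ± 0.0792, SE), on a dim probe set, and Coro1a (-0.14 ± 0.0813). In 1, S100a9 (0.12 ± 0.0736), also dim, they lay entirely above (6.67% of the array). Lyz2 alone had an unadjusted p under 0.05 (limma). Among 12 endothelial genes, 9 were measured, 4 below 0 and 5 above, with a median of 0.0015 and 0 passing. Their mean level ran from 7.39 to 7.48 in wild type and from 7.34 to 7.42 in the mutants, and summed on the linear scale the list ran from 2073 to 2286 and from 1934 to 2106. Vwf, the von Willebrand factor of endothelium and platelets, read 7.58, 7.50 and 7.52 in wild type and 7.37, 7.16 and 7.18 in Hdh4/Q80 mice 7, 8 and 9. All mutants lay below the wild types, with a difference of -0.30 ± 0.0778 (SE; adjusted p = 0.857 in limma's test), and -0.040 on its other probe set. Cldn5, a tight junction protein of the blood-brain barrier, differed by -0.21 ± 0.111 and Pecam1 by 0.15 ± 0.101. The part of blood or vessel content in the globin differences was not tested.

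**Figure D4:**
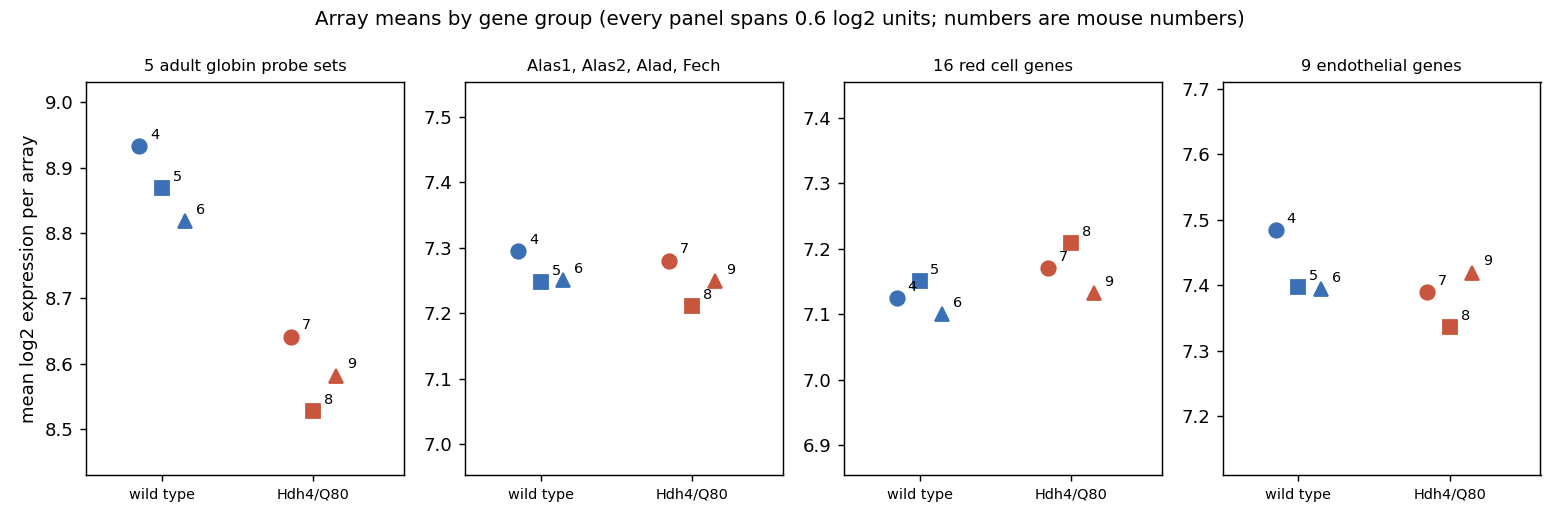
Mean log2 expression per array (y axis) of the 5 adult globin probe sets, the 4 heme synthesis enzymes, the 16 red cell genes and the 9 endothelial genes, by group (x axis), 1 point per mouse with its number. The globin means run from 8.82 to 8.93 in wild type and from 8.53 to 8.64 in Hdh4/Q80 mice, while the groups overlap in the other 3 panels.

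Choroid plexus genes also varied between the mice. Of 7 looked for, 4 were measured, and all 4 were above 0 in the mutants, with 0 passing the test and overlapping groups. Summed on the linear scale the list ran from 705 to 1675 in wild type and from 737 to 3029 in the mutants, and its part in the globin differences was not tested. Ttr, transthyretin, which the choroid plexus makes in large amounts, read 8.48, 8.32 and 10.26 in wild-type mice 4, 5 and 6 and 8.46, 10.59 and 11.24 in Hdh4/Q80 mice 7, 8 and 9. Wild type 6 and Hdh4/Q80 mice 8 and 9 were high in Ttr. The globin means were 8.93, 8.87 and 8.82 in wild-type mice 4, 5 and 6 and 8.64, 8.53 and 8.58 in Hdh4/Q80 mice 7, 8 and 9. Within each group the mice high in Ttr had the lower globin means, an ordering of few mice read after seeing the values. Between the groups, Hdh4/Q80 mouse 7, low in Ttr (8.46), had a lower globin mean (8.64) than wild type 6 (8.82). Ttr (1.08 ± 0.671, SE) and Kl (0.83 ± 0.440) held ranks 1 and 2 from the highest difference on the array. Aqp1 did not follow Ttr, with wild type 6 as its lowest array (7.38).

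The genes most like Hba-a1 over the 6 arrays, with all members left out, were taken from the 6672 probe sets that name 1 gene and lie outside the dimmest 40%. They were Pdia6, a protein disulfide isomerase (r = 0.993), the phospholipase Pla2g5 (0.990), St13, a cochaperone of Hsp70 (0.984), and the mitochondrial ribosome proteins Mrpl40 (0.983) and Mrpl21 (0.980). Pdia6 read 7.48, 7.33 and 7.26 in wild type and 7.11, 6.88 and 6.94 in the mutants on this probe set, a difference of -0.38 ± 0.088 (SE). Its other probe sets had an r of 0.947 and 0.306 with Hba-a1. The other probe set of Pla2g5 had an r of -0.502 and a difference of 0.035, and that of St13 an r of 0.702 with overlapping groups. With the group means taken off and the members left out, 1 of these 5 genes, Pdia6, was still among the 5 most like Hba-a1 (r = 0.975, rank 13 of the 12421 probe sets), while Alas2, a member, stood closer, as given above.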

How the data were processed

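Striatal total RNA of 6 mice was biotin-labelled and hybridised to Affymetrix arrays, 1 per mouse, per the labels' protocols. The authors deposited log2 expression, 1 value per probe set, from RMA (affy package), per the submitters' processing notes; the sources used here name neither versions nor the arrays that were normalized as a set. RMA equalises arrays and shrinks differences of dim and nearly saturated probe sets. The few arrays limit precision. The p-values set the group difference against a spread that limma draws from these mice and from all probe sets together. Of 12488 probe sets 66 controls were left out. Names came from the platform annotation: 10833 probe sets name 1 gene, 396 several and 1193 none. A list gene is represented by its brightest probe set.

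The groups were compared with limma 3.58.1 under R 4.3.3 (lmFit and eBayes; degrees of freedom 4 residual, 5.81 prior). P-values of all 12422 probe sets were adjusted by Benjamini-Hochberg, with a threshold of 0.05. The fit was tested on simulated data. Members and lists were chosen with earlier results of these data known. Named were all members, some or all of the 4 genes of smallest p in each list, and the 5 genes most like Hba-a1 by Pearson r. Ppox, the red cell genes below 0 other than Alas2, and Pnrc1, Nomo1, Ntrk3 and Gpank1 fall outside this rule. They were chosen after seeing their values. The alternatives tried were a filter that drops the dimmest 40%, median centring, quantile and cyclic loess normalization, trended and robust moderation, array weights, other probe set choices and leaving out each mouse.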

Additional observations from a re-analysis of the deposited data

How the results depend on the processing

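All 5 adult globin probe sets (4 without the dimmest 40%) stayed below 0 in each of the 12 alternatives of normalization, filter, moderation, weights and left-out mouse. Part of this was fixed in advance: the filter and the moderation do not alter a difference, and median centring hardly does. In the 4 globin probe sets whose groups did not overlap, no left-out mouse can change the sign. The mean difference of the 5 globin probe sets, -0.29, became -0.22 with array weights and -0.36 over the probe sets that name 1 gene. It ran from -0.32 to -0.26 with 1 mouse left out. Entirely below wild type were 4 globin probe sets, or 4 to 5 with 1 mouse left out. Leaving out a mouse can only keep or raise this count, so its range does not show stability. Globins minus heme enzymes, -0.27, became -0.35 without the dimmest 40% of probe sets, -0.32 with the brightest probe set of each symbol string and -0.24 with array weights. The heme enzymes' mean of -0.017 became 0.017 with array weights and ran from -0.034 to 0.00067 with 1 mouse left out. The array weights gave 1812 probe sets an unadjusted p under 0.05, against 634, and 0 an adjusted one; 0 passed in every alternative. Of the 5 genes outside the members most like Hba-a1, 1 was kept on deviations from the group means, members again left out. Some small differences changed sign: Hbb-bh1 after quantile normalization (0.00052) and with array weights (0.049), Alas2 under the settings given with its values, and on leaving out 1 mouse Hbb-bh1 (-0.061 to 0.042), Hba-x (-0.12 to 0.0066), Mb (-0.026 to 0.14), Tfrc (-0.0044 to 0.10) and Abcb10 (-0.0025 to 0.060). The cause was not tested. No paired analysis was possible because the groups share no replicate number. With 3 mice a group and no detection calls, small changes and those of the dim Fech and beta-globin probe sets are beyond what these arrays can show.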
